A study of Homo sapiens with 12 samples.

Results

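The NF-kB family and its inhibitors were followed through 10 genes, matched by symbol among the 61906 genes of each count table. They were the 5 subunit genes NFKB1, NFKB2, RELA, RELB and REL, the 3 cytoplasmic IkB genes NFKBIA, NFKBIB and NFKBIE, and the 2 deubiquitinase genes TNFAIP3 and CYLD. All 10 were found in both tables and all 10 had enough reads to be tested in both experiments. The cells were MOLM-14, a human acute myeloid leukemia line, profiled by RNA-seq in 12 libraries, 3 per group. In the knockdown experiment, cells were spinoculated with lentivirus carrying an shRNA against DDX5, an RNA helicase (shDDX5), or a control shRNA (shControl), and were harvested 96 hours after infection, so both groups carried virus. In the drug experiment, cells were exposed for 6 hours, without virus, to RX-5902 at 100 nM, a compound reported to bind phosphorylated DDX5, or to 0.1% DMSO. One cell line was used, the labels name 1 shRNA per arm without its sequence, and the libraries are called biological replicates without saying how cultures were separated, so p-values measure the spread between these libraries. From the first to the last exon base listed by the authors (GRCh38), the subunit genes lie at chr4:102501330-102617302 (NFKB1), chr10:102394110-102402524 (NFKB2), chr11:65653599-65663090 (RELA), chr19:45001461-45038192 (RELB) and chr2:60881491-60931612 (REL). The IkB genes lie at chr14:35401079-35404749 (NFKBIA), chr19:38899700-38908893 (NFKBIB) and chr6:44258166-44265788 (NFKBIE), and the deubiquitinase genes at chr6:137867214-137883314 (TNFAIP3) and chr16:50742050-50801935 (CYLD).

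NF-kB proteins bind DNA as dimers. In resting cells, IkB proteins hold most dimers in the cytoplasm. In the canonical pathway, the IKK complex phosphorylates the IkB proteins, which are then ubiquitinated and degraded, and dimers such as RELA with the processed NFKB1 product enter the nucleus. In the noncanonical pathway, the kinase NIK (MAP3K14) and CHUK trigger processing of the NFKB2 precursor, which frees dimers of RELB. NFKBIA, TNFAIP3, NFKB2 and RELB are themselves textbook NF-kB targets, and TNFAIP3 and CYLD remove ubiquitin chains that carry the signal to IKK.

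Promoter sequence is shown first, because the members that rose most under RX-5902 include genes known to be NF-kB targets. RefSeq start-site windows on GRCh38.p14 (250 bases before to 50 bases after a start) were read for 8 members, in 15 windows, and the members without one were RELB and NFKBIE. The NF-kB (κB) consensus motif of 10 bases, searched on both strands with overlapping matches allowed, was present in 9 of the 15 windows (60.0%) and in at least 1 window of 7 of the 8 members (87.5%). Among all genes with a window it was present in 13.3% of 27305, and among all windows in 11.3% of 35116. The members had more windows per gene than all genes, which favours at least 1 match per member, and windows of CYLD overlapped each other. RELA was the member with no match in its windows. The members were chosen as NF-kB pathway genes and include textbook targets, so a high share could be foreseen and is not a result of these data. A match is a stretch of letters and says nothing of binding in these cells. The 250 bases before a start of NFKB2 (chr10:102394328-102394577, plus strand) and before the start of NFKBIA (chr14:35404750-35404999, minus strand) are printed 5′ to 3′ with the matches in capitals.
NFKB2: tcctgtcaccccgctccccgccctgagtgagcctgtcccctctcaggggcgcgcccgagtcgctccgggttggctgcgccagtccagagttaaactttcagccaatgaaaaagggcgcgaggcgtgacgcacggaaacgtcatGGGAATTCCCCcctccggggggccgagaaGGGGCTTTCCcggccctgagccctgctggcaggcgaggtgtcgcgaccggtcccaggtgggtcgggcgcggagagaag
NFKBIA: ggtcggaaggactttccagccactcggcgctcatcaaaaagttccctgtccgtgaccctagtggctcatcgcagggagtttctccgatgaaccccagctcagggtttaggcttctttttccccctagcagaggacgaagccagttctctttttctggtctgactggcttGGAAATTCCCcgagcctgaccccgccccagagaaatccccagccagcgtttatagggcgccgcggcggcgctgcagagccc

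For 5 other members the first match is shown with 15 bases on each side, again 5′ to 3′ with matches in capitals. They include NFKBIB, which was not called with RX-5902. Any link between the matches and the changes was not tested. The stretches lie at chr4:102501295-102501334 (NFKB1), chr2:60881512-60881551 (REL), chr19:38899926-38899965 (NFKBIB), chr6:137867177-137867216 (TNFAIP3) and chr16:50741882-50741921 (CYLD), all on the plus strand.
NFKB1: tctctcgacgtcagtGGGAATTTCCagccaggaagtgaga
REL: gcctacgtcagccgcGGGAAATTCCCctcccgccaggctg
NFKBIB: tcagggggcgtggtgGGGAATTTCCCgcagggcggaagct
TNFAIP3: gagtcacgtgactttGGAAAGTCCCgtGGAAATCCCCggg
CYLD: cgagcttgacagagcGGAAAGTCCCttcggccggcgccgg

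Library totals were 17603589 to 19674098 counts with the knockdown and 20264250 to 20367575 with the drug, and the members held 102 reads (REL in shDDX5 replicate 1) to 5630 reads (TNFAIP3 in shDDX5 replicate 3) per library. DDX5 itself fell to 159, 164 and 161 CPM in shDDX5 cells, against 755, 718 and 729.5 CPM in shControl cells (CPM, each library's counts divided by its TMM-scaled total), and stood at 1108, 1067 and 1023 CPM in RX-5902 cells against 854 to 868 CPM in DMSO cells. The library of shDDX5 replicate 1 stood apart: its chi-square per gene against replicates 2 and 3 was 52.5 and 52.7, while all other replicate pairs of the study lay between 1.76 and 6.62, and its mitochondrial share of counts was the highest of the 12, at 10.3%. Knockdown results are therefore given with and without it. Of 17 myeloid identity markers, 14 averaged at least 1 CPM in shDDX5 and shControl cells and 13 in RX-5902 and DMSO cells. Below that were KIT, CD34 and CD68 in every group, with CD68 at or below 0.365 CPM in every library. CD14 was also below it in RX-5902 and DMSO cells, at or below 0.146 CPM. Their summed level was 13838 to 15219 CPM in shDDX5 cells against 4604 to 4945 CPM in shControl cells, and 1 gene carried that difference: LYZ had 12364 to 13761 CPM in shDDX5 cells against 3203 to 3581 CPM in shControl cells. Other myeloid markers went in both directions. Lower in every shDDX5 library than in shControl were MEIS1 (2.77 to 3.29 against 18.5 to 21.8 CPM), HOXA9 (9.11 to 11.7 against 30.2 to 32.7 CPM), PTPRC (100.1 to 144 against 222 to 239.9 CPM), FLT3 (257 to 278 against 378 to 390.1 CPM) and CD14. Higher in every shDDX5 library were ITGAM (85.9 to 110.1 against 40.9 to 43.2 CPM), CD33 (111 to 125 against 62.1 to 65.3 CPM), CSF1R, MPO, CSF3R, FCGR1A and SPI1. With the drug the sum was 1872 to 1910.4 CPM in RX-5902 cells against 1822 to 1847 CPM in DMSO cells, with PTPRC higher (496 to 542 against 254 to 286 CPM) and LYZ lower (251 to 264 against 367 to 388 CPM). ITGAM (15.0 to 15.6 against 6.22 to 6.57 CPM), CSF1R, MEIS1, HOXA9 and SPI1 were also higher in every RX-5902 library. MPO (54.7 to 58.8 against 93.8 to 101 CPM), FLT3, CEBPA, CD33 and CSF3R were lower in every RX-5902 library. Of 12 T, NK and B cell markers, 3 averaged at least 1 CPM in shDDX5 cells and 4 in shControl cells, with sums of 191 to 240.2 CPM against 140.3 to 151 CPM and CD8A, MS4A1, CD3G and KLRD1 at 0 in both groups. NKG7 made most of that difference (95.6 to 145 against 51.1 to 55.4 CPM), while CD3D (0.0568 to 0.340 against 1.05 to 1.63 CPM) and GNLY (12.3 to 16.8 against 17.8 to 19.2 CPM) were lower in shDDX5 cells. Of 12 packaging, epithelial and stromal markers, 6 averaged at least 1 CPM in shDDX5 cells and 5 in shControl cells, with sums of 217 to 257 CPM against 121 to 129 CPM and EPCAM, COL3A1, CDH1 and KRT19 at 0 in both. PECAM1 made nearly all of that sum (202 to 239.9 against 107 to 113 CPM). COL1A1 (3.29 to 5.83 against 0.542 to 0.597 CPM) and KRT8 (5.38 to 7.04 against 3.29 to 3.60 CPM) were also higher in every shDDX5 library. L1CAM was lower in shDDX5 cells (1.31 to 2.14 against 6.46 to 7.55 CPM). In the drug experiment the lymphoid sums were 56.9 to 61.0 CPM in RX-5902 cells against 50.2 to 53.5 CPM in DMSO cells, and the packaging sums 148 to 154 CPM against 137 to 141 CPM. There L1CAM was higher in RX-5902 cells (16.8 to 19.5 against 3.61 to 4.09 CPM) and PECAM1 was not (126 to 133 against 132 to 136 CPM). The part of these differences in the results below was not tested.

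Under RX-5902, 9 of the 10 genes rose and 0 fell by edgeR, and 0 were lower at an unadjusted p under 0.05. DESeq2 called 7 higher, without RELA and REL, and 0 lower. RELB and NFKB2, the subunit genes of the noncanonical pathway, rose most, 5.01-fold and 4.61-fold, followed by CYLD at 3.28-fold and NFKBIA at 2.43-fold. In shDDX5 cells the calls went in both directions: NFKB2 and RELA rose, NFKB1, NFKBIB and CYLD fell, and the other 5 did not pass the test. CYLD was the member with the largest knockdown change, 2.08-fold lower in shDDX5 cells. A gene is called where edgeR's quasi-likelihood test gave a p under 0.05 after Benjamini-Hochberg adjustment across every gene tested in that experiment. In bulk RNA, fewer cells of a type and less RNA per cell cannot be told apart.

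The calls have to be read against a background in which most genes were called. In RX-5902 over DMSO, 8943 of 13941 genes tested were called (64.1%), 32.2% higher and 31.9% lower, so 9 of 10 members higher stands against 32.2%. When the change was tested against a fold of 1.2, 6 members remained higher (RELB, NFKB2, CYLD, NFKBIA, NFKBIE and TNFAIP3), against 18.5% of all genes. The median log2 fold change was 0.73 over the members and 0.0123 over all genes. For shDDX5 over shControl, 8204 of 14463 genes were called (56.7%), 28.4% higher and 28.3% lower. The 5 members called there, 2 higher and 3 lower, are a share near that background, and the members' median was -0.11 against -0.0007 over all genes. Without shDDX5 replicate 1, 9 members were called, 3 higher and 6 lower, where 71.4% of all genes were called.

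**Figure D1:**
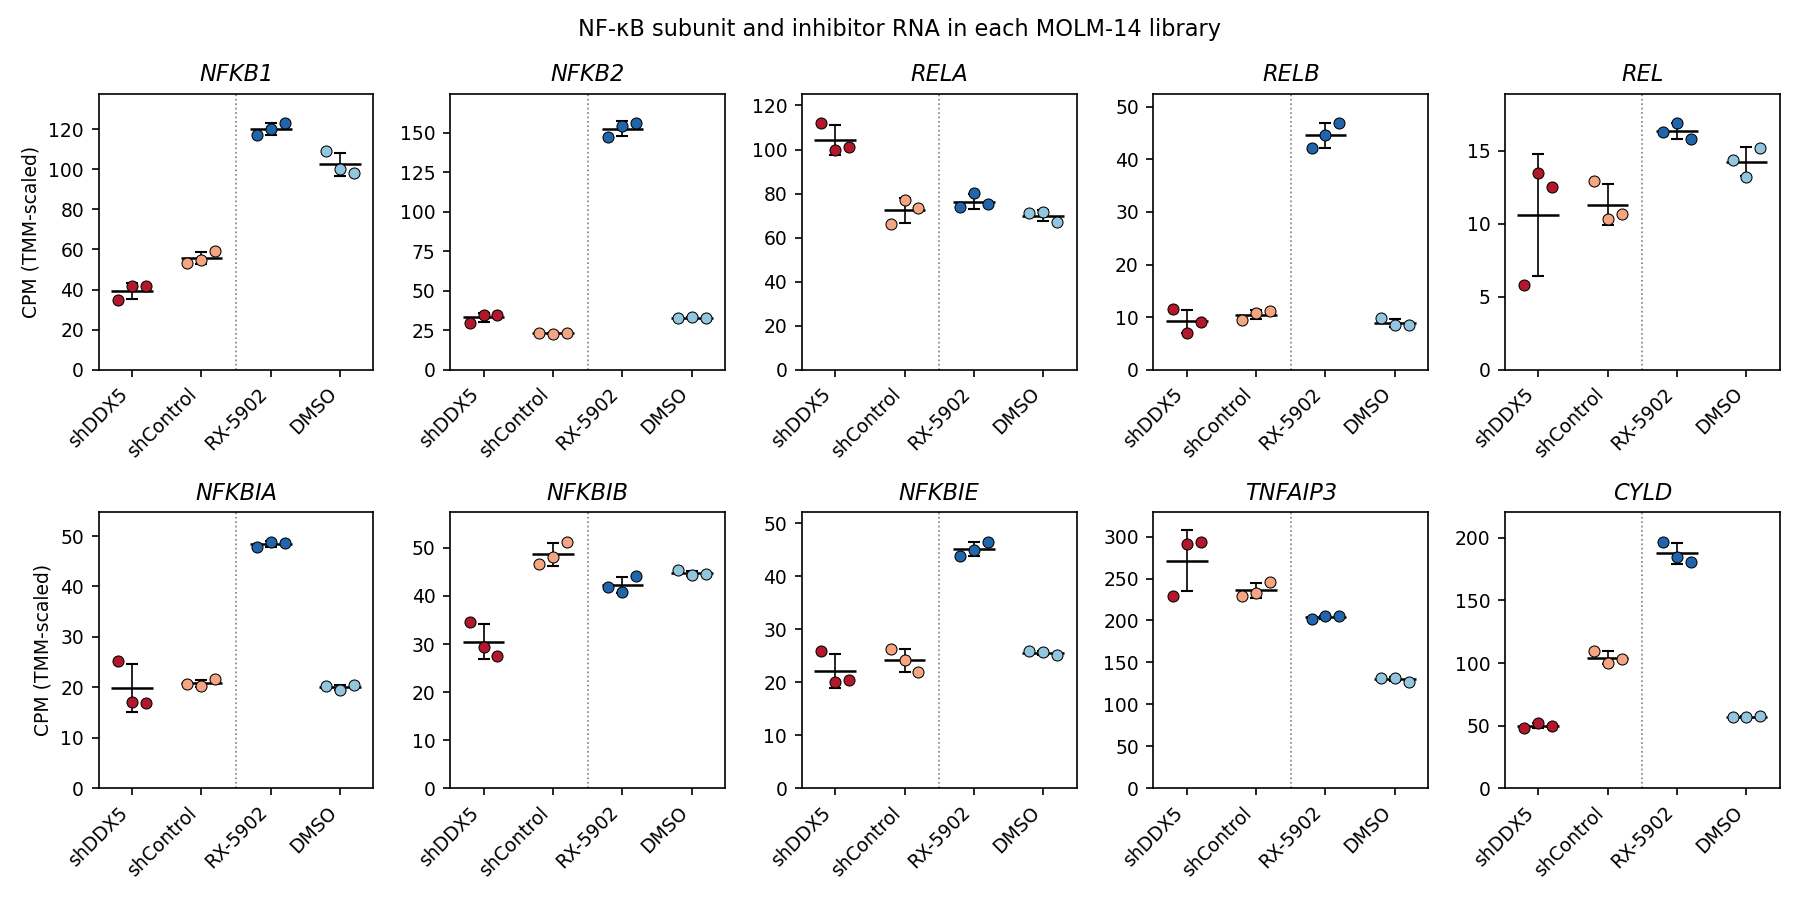
TMM-scaled CPM (y axes, each from 0) of the 10 genes in each library, by group; points are libraries, horizontal lines the mean and bars the SD of 3 libraries, and the dotted line separates the 2 experiments. NFKB2, RELB, NFKBIA, NFKBIE, TNFAIP3 and CYLD stand well above DMSO in all 3 RX-5902 libraries, while CYLD and NFKBIB are lower in all 3 shDDX5 libraries than in shControl.

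Levels of different genes are compared per kilobase of the merged exon length in the deposited tables (RPKM). TNFAIP3 had the highest level and REL the lowest in all 4 groups. TNFAIP3 averaged 42.5 ± 5.71 RPKM in shDDX5 cells and 36.9 ± 1.39 RPKM in shControl cells, and 31.9 ± 0.260 RPKM in RX-5902 cells and 20.4 ± 0.389 RPKM in DMSO cells (SD, n = 3 each). REL was at or below 0.954 RPKM on average in every group. In DMSO cells the order below TNFAIP3 was NFKBIB (19.3 RPKM), RELA (12.8 RPKM), NFKBIE (9.88 RPKM), NFKB1 (6.53 RPKM), NFKB2 (5.91 RPKM), NFKBIA (5.88 RPKM), CYLD (4.42 RPKM), RELB (2.97 RPKM) and REL (0.833 RPKM), and of these neighbours only NFKB2 and NFKBIA overlapped in their library values. In RX-5902 cells NFKB2 stood next after TNFAIP3, at 27.3 ± 0.766 RPKM, above NFKBIB at 18.2 ± 0.697 RPKM and NFKBIE at 17.5 ± 0.522 RPKM, whose values overlapped. RELB, CYLD, NFKBIA and RELA followed at 14.9, 14.5, 14.3 and 14.0 RPKM on average, each overlapping its neighbour, and NFKB1 at 7.64 RPKM and REL at 0.954 RPKM stood apart below them.

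The knockdown libraries gave another order. In shDDX5 cells RELA came after TNFAIP3 at 19.1 ± 1.22 RPKM, above NFKBIB at 13.1 ± 1.56 RPKM, whereas in shControl cells NFKBIB came after TNFAIP3 at 20.9 ± 1.04 RPKM and RELA came next at 13.3 ± 1.04 RPKM, and the 2 genes stood apart in both groups. CYLD ranked below NFKBIA in shDDX5 cells at 3.87 ± 0.154 RPKM, overlapping RELB below it, and higher in the order in shControl cells, at 8.06 ± 0.388 RPKM, overlapping NFKBIE above it. NFKB1 stood just below RELB in shDDX5 cells, at 2.51 ± 0.258 RPKM, and just above it in shControl cells, at 3.56 ± 0.197 RPKM, and overlapped it in both. These orders depend on the gene length used, since the merged exons of NFKB1 (15679 bases), REL (17129 bases) and CYLD (12952 bases) are far longer than the median of their protein-coding transcripts (3858, 6826 and 3513 bases). With that transcript length, REL remained lowest in all 4 groups, but NFKBIB at 38.6 RPKM moved above TNFAIP3 at 34.1 RPKM in DMSO cells, and CYLD overlapped TNFAIP3 in RX-5902 cells, both averaging 53.5 RPKM. NFKB1 then stood apart above RELB, at 10.2 against 4.03 RPKM in shDDX5 cells and 14.5 against 4.61 RPKM in shControl cells. In DMSO cells NFKB1 averaged 26.5 RPKM and overlapped RELA at 26.1 RPKM.

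Among the subunits, NFKB2 encodes the precursor of the noncanonical DNA-binding subunit. It had 147, 154 and 156 CPM in the RX-5902 libraries, against 32.7, 33.4 and 32.9 CPM in the DMSO libraries. Every RX-5902 library was far above every DMSO library, a log2 fold change of 2.21 (SE 0.05, edgeR adjusted p = 8.73e-28). In the knockdown experiment NFKB2 had 29.7, 34.9 and 34.7 CPM in shDDX5 cells, against 23.4, 22.7 and 23.3 CPM in shControl cells. The groups did not overlap, with replicate 1 the lowest shDDX5 library, and the log2 fold change was 0.51 (SE 0.09, adjusted p = 0.00176). NFKB2 was thus higher in both experiments, and the knockdown change was smaller by 1.71 on the log2 scale in the test of the difference over all 12 libraries (SE 0.09, adjusted p = 3.87e-09).

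RELB, the dimer partner of the processed NFKB2 product, had 42.2, 44.7 and 46.9 CPM in RX-5902 cells, against 9.75, 8.50 and 8.42 CPM in DMSO cells. The groups lay far apart and the log2 fold change was 2.33 (SE 0.07, adjusted p = 1.69e-23). In shDDX5 cells RELB had 11.5, 7.02 and 9.03 CPM, against 9.51, 10.7 and 11.2 CPM in shControl cells. Replicate 1 was the highest of all 6 libraries and replicate 2 the lowest, so the groups overlapped, and the log2 fold change of -0.20 (SE 0.17) did not pass the test (adjusted p = 0.369). Without shDDX5 replicate 1 RELB was lower, with a log2 fold change of -0.38 (adjusted p = 0.00439).

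NFKB1, the gene of the canonical DNA-binding precursor, moved in opposite directions. It had 34.7, 41.7 and 41.8 CPM in shDDX5 cells, against 53.4, 54.7 and 59.3 CPM in shControl cells. No values overlapped, and the log2 fold change was -0.50 (SE 0.10, adjusted p = 0.00308), or -0.42 without shDDX5 replicate 1. With edgeR offsets that follow the trend over gene length it was -0.28 (adjusted p = 0.0127). In RX-5902 cells NFKB1 had 117, 119.9 and 123 CPM, against 109, 100.3 and 98.0 CPM in DMSO cells. The groups were apart but close, a log2 fold change of 0.23 (SE 0.04, adjusted p = 2.98e-05) that was not called against a fold of 1.2 (adjusted p = 0.818).

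RELA encodes the main transactivating subunit of canonical dimers. It had 112, 99.6 and 101 CPM in shDDX5 cells, against 66.2, 77.3 and 73.6 CPM in shControl cells. All shDDX5 libraries were higher, a log2 fold change of 0.52 (SE 0.09, adjusted p = 0.00168), or 0.47 without shDDX5 replicate 1. In RX-5902 cells RELA had 73.8, 80.1 and 75.3 CPM, against 71.4, 71.6 and 67.1 CPM in DMSO cells. The groups were apart by a narrow margin, and the log2 fold change of 0.13 (SE 0.05, adjusted p = 0.0188) was no longer called without DMSO replicate 3 (0.08, adjusted p = 0.140), without RX-5902 replicate 2 (0.09, adjusted p = 0.163) or with DESeq2 (0.11, adjusted p = 0.119). RELA was the single member whose knockdown change exceeded its drug change, by 0.38 (SE 0.11, adjusted p = 0.00897).

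REL, the subunit best known from lymphocytes, had the fewest reads of the subunits per base. Its RX-5902 libraries held 16.3, 16.9 and 15.8 CPM, against 14.4, 13.2 and 15.2 CPM in DMSO cells. The groups were apart, with a log2 fold change of 0.20 (SE 0.08, adjusted p = 0.0256), a call lost in 9 of 16 alternatives, among them those without DMSO replicate 1 (adjusted p = 0.0555), without DMSO replicate 2 (0.193) and without RX-5902 replicate 2 (0.0995). In shDDX5 cells REL had 5.79, 13.5 and 12.5 CPM, against 12.9, 10.3 and 10.7 CPM in shControl cells. Replicate 1 was the lowest of the 6 libraries, replicate 2 the highest and replicate 3 within the control range, and REL did not pass the test with it (log2 fold change -0.09, SE 0.27, adjusted p = 0.796) or without it (0.20, adjusted p = 0.0861). The exons of REL share 5702 bases on the same strand with a second annotated transcript that has 0 counts, and how reads there were assigned is not given in the sources used here.

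The IkB genes encode the proteins that keep NF-kB dimers out of the nucleus. NFKBIA, the fast-responding family member IkB-alpha, had 47.8, 48.9 and 48.7 CPM in RX-5902 cells, against 20.2, 19.4 and 20.4 CPM in DMSO cells. The values within each group were close together and far from the other group, a log2 fold change of 1.28 (SE 0.06, adjusted p = 2.68e-19). In shDDX5 cells NFKBIA had 25.3, 17.1 and 17.0 CPM, against 20.6, 20.2 and 21.6 CPM in shControl cells. Replicate 1 was above all controls and replicates 2 and 3 below them, so the log2 fold change was -0.07 (SE 0.16, adjusted p = 0.723) with replicate 1 and -0.29 (adjusted p = 0.00169) without it.

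NFKBIB encodes IkB-beta, which is degraded and replaced more slowly. It had 34.5, 29.4 and 27.5 CPM in shDDX5 cells, against 46.6, 48.1 and 51.3 CPM in shControl cells. All shDDX5 libraries were lower, a log2 fold change of -0.67 (SE 0.10, adjusted p = 8.28e-04), or -0.78 without shDDX5 replicate 1. In RX-5902 cells NFKBIB had 41.9, 40.9 and 44.1 CPM, against 45.3, 44.3 and 44.6 CPM in DMSO cells. The drug-treated libraries were all slightly lower, but the log2 fold change of -0.08 (SE 0.05) did not pass the test (adjusted p = 0.181), which made NFKBIB the only one of the 10 genes not called under RX-5902. Its exons share 40 bases with SIRT2 on the opposite strand, and those of RELA, TNFAIP3 and CYLD share 103, 95 and 54 bases with the antisense or divergent transcripts RELA-DT, WAKMAR2 and CYLD-AS1. The strand setting of the counting is not given in the sources used here, so such reads cannot be told apart.

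NFKBIE, the gene of IkB-epsilon, had 43.8, 44.9 and 46.5 CPM in RX-5902 cells, against 25.8, 25.6 and 25.1 CPM in DMSO cells. The groups were well separated, at a log2 fold change of 0.82 (SE 0.06, adjusted p = 1.50e-14). In shDDX5 cells it had 25.8, 20.1 and 20.4 CPM, against 26.2, 24.2 and 21.9 CPM in shControl cells. Replicate 1 lay within the control range and the other 2 below it, with a log2 fold change of -0.12 (SE 0.12, adjusted p = 0.427) with replicate 1 and -0.25 (adjusted p = 0.00664) without it.

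TNFAIP3 encodes A20, a ubiquitin-editing enzyme that shuts down signalling from TNF and Toll-like receptors to IKK. It had 202, 205 and 205 CPM in RX-5902 cells, against 132, 131 and 127 CPM in DMSO cells. The groups were far apart, at a log2 fold change of 0.65 (SE 0.04, adjusted p = 4.18e-16). In shDDX5 cells TNFAIP3 had 229, 291 and 294 CPM, against 229, 233 and 246 CPM in shControl cells. Replicate 1 sat with the controls and the other 2 shDDX5 libraries above them, so the log2 fold change of 0.20 (SE 0.11, adjusted p = 0.152) became 0.31 (adjusted p = 4.20e-07) without replicate 1.

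CYLD encodes a deubiquitinase that cuts linear and lysine-linked chains from NF-kB signalling proteins and is known as a tumour suppressor. It had 48.3, 52.2 and 49.8 CPM in shDDX5 cells, against 110.0, 100.3 and 103 CPM in shControl cells. The shDDX5 values were tightly grouped and replicate 1 did not stand out for this gene, with a log2 fold change of -1.06 (SE 0.08, adjusted p = 2.18e-05), or -1.04 without replicate 1. In RX-5902 cells CYLD had 197, 185 and 181 CPM, against 56.9, 56.8 and 58.1 CPM in DMSO cells. The drug groups were as clearly separated in the other direction, at a log2 fold change of 1.71 (SE 0.04, adjusted p = 1.11e-25). The difference between the knockdown and drug changes was -2.79 on the log2 scale (SE 0.09, adjusted p = 1.13e-10), the largest of the 10 members.

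**Figure D2:**
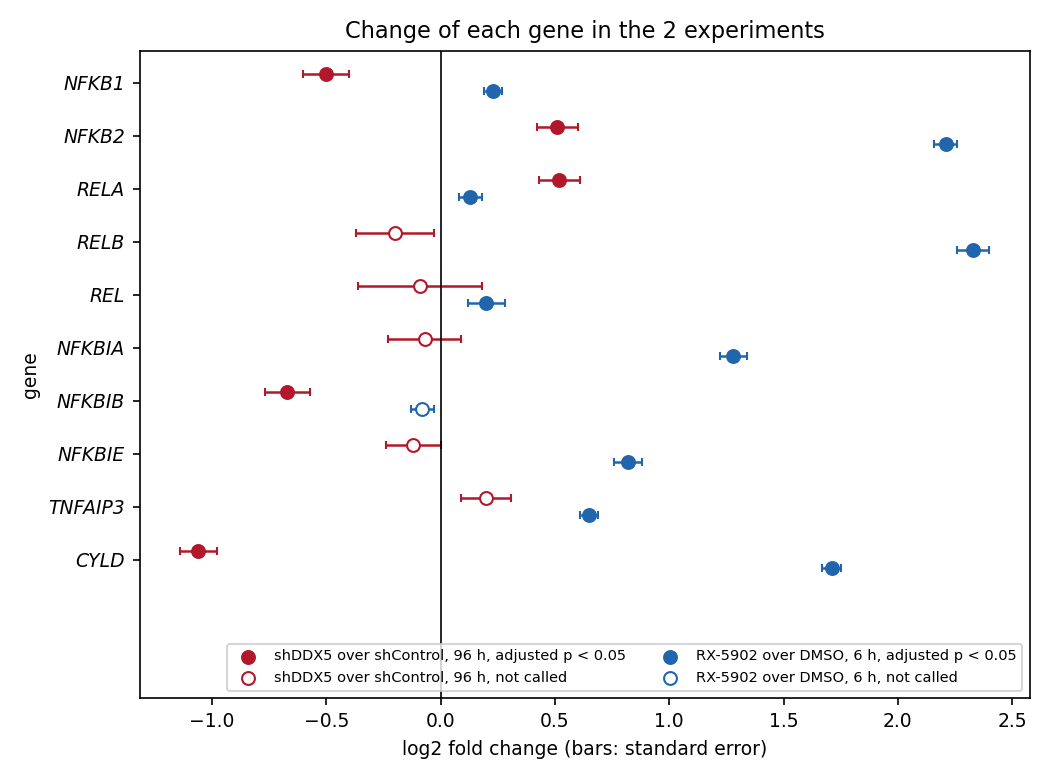
Log2 fold change (x axis) of each gene (y axis) for shDDX5 over shControl at 96 hours (red) and RX-5902 over DMSO at 6 hours (blue), with bars of 1 standard error; filled points passed an edgeR adjusted p of 0.05. The blue points run from -0.08 for NFKBIB to 2.33 for RELB, and the red points from -1.06 for CYLD to 0.52 for RELA.

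Tested over all 12 libraries, the knockdown change differed from the drug change for 9 of the 10 genes, where 52.7% of 15386 genes were called in the same test. For 8 the knockdown change was the lower (CYLD, RELB, NFKB2, NFKBIA, NFKBIE, NFKB1, NFKBIB and TNFAIP3), and for RELA the higher. REL was not called, with a difference of -0.31 (SE 0.28, adjusted p = 0.381). The 9 calls held in all 15 alternatives run for this test. The 2 experiments differ in time, virus and vehicle as well as in the agent, and these cannot be told apart.

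The balance between RNA of the subunit genes and of the 3 IkB genes was described by summed RPKM in each library. NFKB2 counted as a subunit only, although its precursor has to be processed before RELB dimers are freed. The sums and ratios are therefore no measure of inhibitor per active dimer. The 5 subunits summed to 62.4, 65.8 and 66.0 RPKM in RX-5902 cells, against 30.0, 29.1 and 28.1 RPKM in DMSO cells, and to 32.2, 30.3 and 31.1 RPKM in shDDX5 cells, against 23.7, 25.9 and 25.8 RPKM in shControl cells. The subunit sum was higher in every RX-5902 and every shDDX5 library than in its controls, by 1.15 and 0.31 on the log2 scale, or by 0.84 and 0.18 when CPM were summed. The 3 IkB genes summed to 49.1, 49.4 and 51.3 RPKM in RX-5902 cells, against 35.4, 34.7 and 34.9 RPKM in DMSO cells, and to 32.3, 25.5 and 24.7 RPKM in shDDX5 cells, against 36.2, 36.0 and 36.9 RPKM in shControl cells. The IkB sum was therefore higher than control with the drug and lower with the knockdown.

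The ratio of IkB to subunit RNA was lower than control in both experiments. It averaged 0.772 ± 0.0182 in RX-5902 cells and 1.2 ± 0.0311 in DMSO cells, and 0.880 ± 0.110 in shDDX5 cells and 1.45 ± 0.0739 in shControl cells (SD, n = 3 each). The drug log2 difference of -0.64 became -0.44 with transcript lengths and -0.25 when CPM were summed, and the knockdown difference of -0.73 became -0.69 and -0.56. The NFKB2 over NFKB1 ratio averaged 3.57 ± 0.0329 in RX-5902 cells and 0.908 ± 0.0559 in DMSO cells, and 2.36 ± 0.0373 in shDDX5 cells and 1.17 ± 0.0638 in shControl cells, without overlap in either experiment. RELB over RELA, in turn, was higher with the drug, at 1.06 ± 0.0619 in RX-5902 cells and 0.231 ± 0.0166 in DMSO cells, and lower with the knockdown, at 0.159 ± 0.0295 in shDDX5 cells and 0.264 ± 0.0127 in shControl cells. Each of these differences gave an exact two-sided permutation p of 0.1, the smallest that 3 against 3 libraries allow, so the design cannot reach 0.05 for them. Without shDDX5 replicate 1 the knockdown log2 differences were 0.29 for the subunit sum, -0.53 for the IkB sum, -0.82 for IkB over subunits, 1.00 for NFKB2 over NFKB1 and -0.87 for RELB over RELA. The heights of the NFKB2 over NFKB1 and RELB over RELA ratios depend on gene length, while their changes between groups do not. With transcript lengths, NFKB2 stood at 49.1 against 31.0 RPKM for NFKB1 in RX-5902 cells, and at 10.6 against 26.5 RPKM in DMSO cells. It stood at 10.7 against 10.2 RPKM in shDDX5 cells, and at 7.47 against 14.5 RPKM in shControl cells. RELB then lay below RELA in RX-5902 cells, at 19.6 against 28.5 RPKM.

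The noncanonical genes NFKB2 and RELB together made up 64.9, 64.6 and 65.9% of the subunit sum in RX-5902 cells, against 30.4, 30.3 and 30.9% in DMSO cells. The size of this share depends on gene length and was smaller with transcript lengths in both groups. NFKB2 and RELB then averaged 49.1 and 19.6 RPKM in RX-5902 cells, beside 31.0 RPKM for NFKB1 and 28.5 RPKM for RELA. In shDDX5 cells they made up 28.4, 28.4 and 29.6%, against 31.2, 29.5 and 30.7% in shControl cells, and those groups overlapped (exact permutation p = 0.2). The knockdown log2 difference in that share was -0.08 by RPKM but turned to 0.15 when CPM were summed and to 0.04 with transcript lengths. NFKBIA made up 28.7, 29.2 and 27.9% of the IkB sum in RX-5902 cells, against 16.8, 16.5 and 17.2% in DMSO cells, and 23.1, 19.8 and 20.2% in shDDX5 cells, against 16.8, 16.5 and 17.2% in shControl cells. The NFKBIA share was larger than in the controls in both experiments (exact permutation p = 0.1 in each), with NFKBIA itself higher in RX-5902 cells and NFKBIB itself lower in shDDX5 cells.

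**Figure D3:**
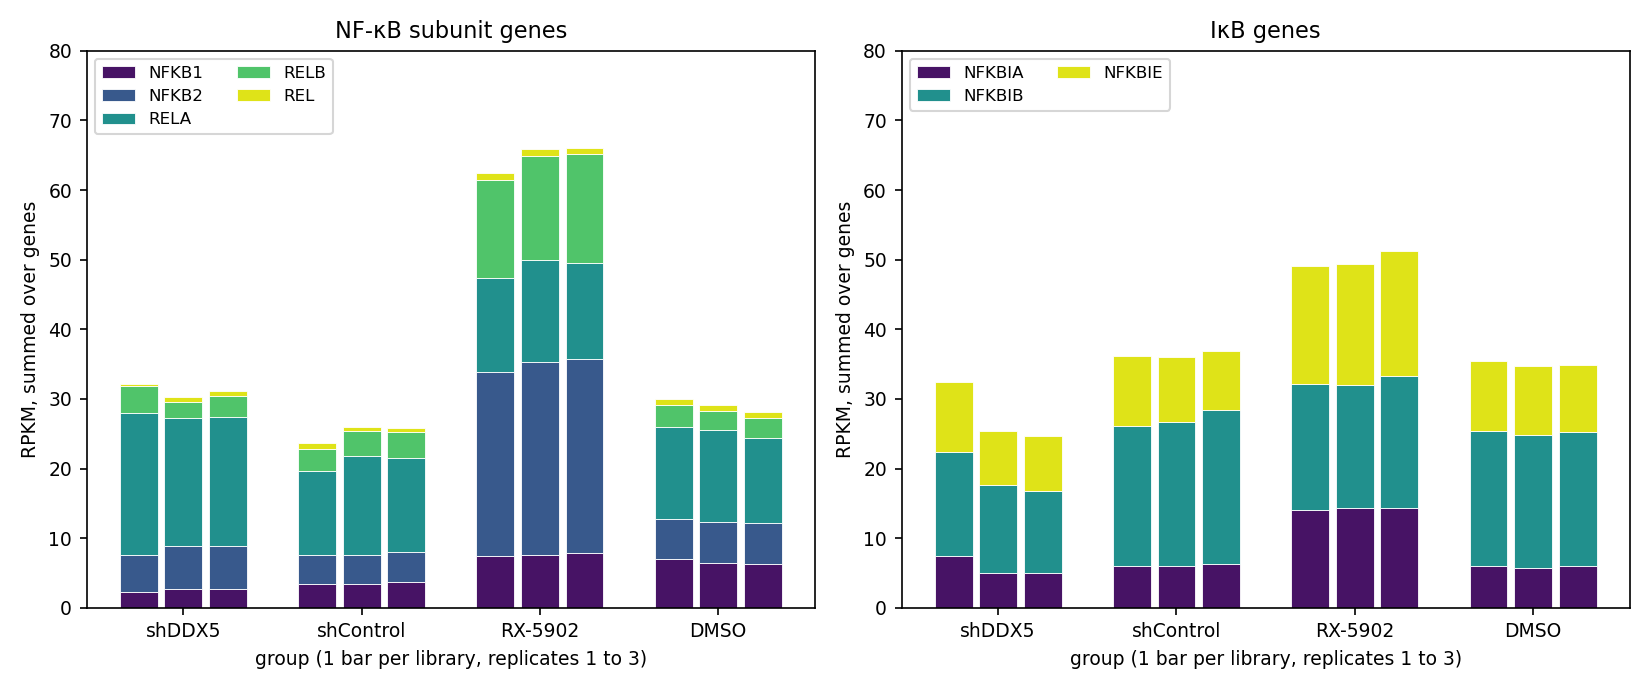
Summed RPKM (y axis) of the 5 subunit genes (left panel) and the 3 IkB genes (right panel), with 1 stacked bar per library in the 4 groups. The RX-5902 bars reach 62.4 to 66.0 RPKM for the subunits, mostly through NFKB2 and RELB, against 28.1 to 30.0 RPKM in DMSO, and the shDDX5 bars of the IkB panel lie at 24.7 to 32.3 RPKM against 36.0 to 36.9 RPKM in shControl.

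Other genes of the pathway were counted in 5 lists, chosen with earlier results of these data known. The share of each list that was called is set beside that of all genes, which was 64.1% in RX-5902 cells, 56.7% in shDDX5 cells and 71.4% there without replicate 1. Of 26 tested genes of the IKK complex and its upstream kinases and adaptors, 19 rose and 3 fell in RX-5902 cells (median log2 fold change 0.24), and 9 rose and 6 fell in shDDX5 cells (median 0.10), or 12 and 6 without shDDX5 replicate 1. The called share was 84.6% with RX-5902, and with the knockdown it was near that of all genes, at 57.7%, or 69.2% without replicate 1. Each called knockdown change given by name from the lists was called in every alternative run for it, except those of CHUK, BIRC2, TRAF2 and LTBR. With RX-5902 the adaptor TRAF1 rose by 2.98 (8.78, 7.76 and 8.25 CPM in RX-5902 cells, against 1.01, 1.42 and 0.702 CPM in DMSO cells), the kinase gene MAP3K8 by 1.62, MAP3K3 by 1.16 and MALT1, the paracaspase, by 0.70 on the log2 scale. In shDDX5 cells the adaptor MYD88 rose by 1.05 (163, 152 and 147 CPM in shDDX5 cells, against 73.8, 74.8 and 74.8 CPM in shControl cells) and the kinase NLK by 0.91. IKBKB, the catalytic IKK subunit of the canonical pathway, fell by 0.82, and TAB1, a partner of the kinase TAK1, by 0.67.

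The noncanonical regulators were looked up after the NFKB2 and RELB values had been seen. MAP3K14 (NIK), the kinase that starts the noncanonical pathway, had 15.0, 15.4 and 16.1 CPM in RX-5902 cells, against 8.09, 9.41 and 7.72 CPM in DMSO cells, a log2 fold change of 0.88 (adjusted p = 1.40e-10). In shDDX5 cells it had 3.01, 3.74 and 4.65 CPM, against 4.58, 4.93 and 5.62 CPM in shControl cells, with overlap and no call (adjusted p = 0.0937). TRAF3, which marks NIK for degradation, rose by 0.35 in RX-5902 cells and fell by 0.59 in shDDX5 cells. Its partners showed small changes: BIRC2 had a log2 fold change of 0.32 in RX-5902 cells and 0.24 in shDDX5 cells, and TRAF2 of -0.19 and -0.27, all called, though the knockdown call of BIRC2 held in only 7 and that of TRAF2 in only 6 of 16 alternatives. CHUK, the IKK subunit used by NIK, was not called in RX-5902 cells (-0.03, adjusted p = 0.648) and fell by 0.34 in shDDX5 cells. LTBR, a receptor that can feed this pathway, went the other way from MAP3K14 with the drug. It fell by 0.42 in RX-5902 cells and rose by 0.35 in shDDX5 cells. BIRC3 had too few reads to be tested in either experiment.

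Of 20 tested genes for TNFAIP3 partners, linear ubiquitin and IkB degradation, 9 rose and 3 fell in RX-5902 cells (median 0.10), and 3 rose and 3 fell in shDDX5 cells (median 0.12), or 7 and 4 without shDDX5 replicate 1. The called share was 60.0% with RX-5902 and 30.0% with the knockdown, or 55.0% without replicate 1, each below that of all genes. TNIP1, which carries A20 to ubiquitin chains, rose by 0.59 in RX-5902 cells (96.6, 101 and 105 CPM, against 68.3, 67.7 and 64.9 CPM in DMSO cells) and fell by 0.40 in shDDX5 cells (41.2, 37.7 and 42.2 CPM, against 52.1, 53.6 and 53.9 CPM in shControl cells). The deubiquitinase genes OTUD7B and USP4 rose by 0.55 and 0.30 with the drug, and the ubiquitin ligase gene ITCH, an A20 partner, by 0.41. In shDDX5 cells OTULIN, the deubiquitinase specific for linear chains, fell by 1.28 (20.7, 29.6 and 28.3 CPM, against 67.0, 59.1 and 64.5 CPM in shControl cells), and FBXW11, a receptor that brings phosphorylated IkB to its ubiquitin ligase, by 0.89. SHARPIN, a subunit of the linear ubiquitin ligase, rose by 0.80. CYLD and OTULIN, both of which cut linear chains, were thus both lower in shDDX5 cells, and replicate 1 had the lowest value of both.

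Of the 6 nuclear and atypical IkB and related genes, 5 rose in shDDX5 cells (median 0.72) and the sixth, NKRF, had a log2 fold change of -0.20 (adjusted p = 0.0900) and was called lower without shDDX5 replicate 1, and 4 rose and 1 fell in RX-5902 cells (median 0.28), a called share of 83.3% in both experiments. BCL3, a nuclear IkB protein that joins dimers of the processed NFKB1 and NFKB2 products, had 29.3, 29.3 and 30.5 CPM in RX-5902 cells, against 3.89, 6.02 and 3.81 CPM in DMSO cells. It was 6.48-fold higher with the drug, and it also rose by 0.78 in shDDX5 cells. NFKBIZ, another nuclear IkB protein, rose by 0.44 in RX-5902 cells and by 0.71 in shDDX5 cells. With the drug, NFKBID, also a nuclear IkB protein, rose by 0.59 and NKRF, a repressor of NF-kB target genes, fell by 0.59. NKIRAS1 and NKIRAS2, small GTPase-like proteins that bind IkB, rose by 0.81 and 0.74 in shDDX5 cells.

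Receptor genes were sparse, and 9 of 21 could be tested in the drug experiment and 13 in the knockdown. With RX-5902, 5 rose and 4 fell (median 0.90), so all 9 were called. Among the 5, TNFRSF9 and NOD2 met the read filter only through RX-5902 libraries, so their rises add no support to that share. TNFRSF9, a TNF-family receptor, had 3.67, 3.31 and 4.12 CPM in RX-5902 cells, against 0.152, 0.202 and 0.150 CPM in DMSO cells, where few reads set the value. TLR4 rose by 1.56 and TLR6 by 0.90, while TNFRSF1B, a TNF receptor, fell by 0.64. In shDDX5 cells 6 rose and 4 fell (median 0.35), or 7 and 4 of 14 without shDDX5 replicate 1, called shares of 76.9% and 78.6%. Among them LY96, NOD2 and TNFRSF13C fell and met the filter only through shControl libraries, and TLR8 rose and met it only through shDDX5 libraries. CD14, a lipopolysaccharide co-receptor, fell by 1.55 (2.78, 2.43 and 1.88 CPM, against 6.42, 7.15 and 7.20 CPM in shControl cells). LY96, which pairs with TLR4, fell by 1.49 (0.511, 0.453 and 0.418 CPM, against 1.59, 1.08 and 1.23 CPM in shControl cells). TNFRSF1A, the main TNF receptor, rose by 0.61 and TLR1 by 0.73.

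Of the textbook NF-kB target genes of inflammation and survival, 49 of 50 were matched. In RX-5902 cells 27 of 37 tested rose and 4 fell (median 0.49), and in shDDX5 cells 24 of 38 rose and 7 fell (median 0.47), or 27 and 10 without shDDX5 replicate 1. The called share was 83.8% with RX-5902 and 81.6% with the knockdown, or 97.4% without replicate 1. Some of these genes met the read filter through a single group. Among them were PTX3 and EBI3 through RX-5902 and CCL22 through shDDX5 libraries. LTA met it through shControl libraries in the knockdown and through DMSO libraries in the drug experiment. With RX-5902, CXCL10, a chemokine, rose by 3.11, TNFAIP2 by 1.88 and PLAU, a plasminogen activator, by 0.93. In shDDX5 cells PLAUR, the receptor of that activator, rose by 1.80 and CD83, a surface protein of activated myeloid cells, by 1.33, while the gelatinase MMP9 fell by 1.92. TNF itself, a target gene and also a ligand of the canonical pathway, went the other way in both experiments. It had 29.5, 32.1 and 34.4 CPM in RX-5902 cells, against 113, 120.1 and 113 CPM in DMSO cells, and 79.3, 63.7 and 67.3 CPM in shDDX5 cells, against 304, 335 and 329.7 CPM in shControl cells. LTA and LTB, its neighbouring family genes and chosen after their values had been seen, were also lower in both. LTB had a log2 fold change of -1.27 in RX-5902 cells and -1.12 in shDDX5 cells. LTA, at or below 1.05 CPM in every library, had -1.27 and -2.11. As LTA met the filter only through the control group each time, its falls add no support. Its drug call held in 14 of 15 alternatives. The fold changes of the target lists sit beside those of the members in the plot of pathway lists.

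**Figure D4:**
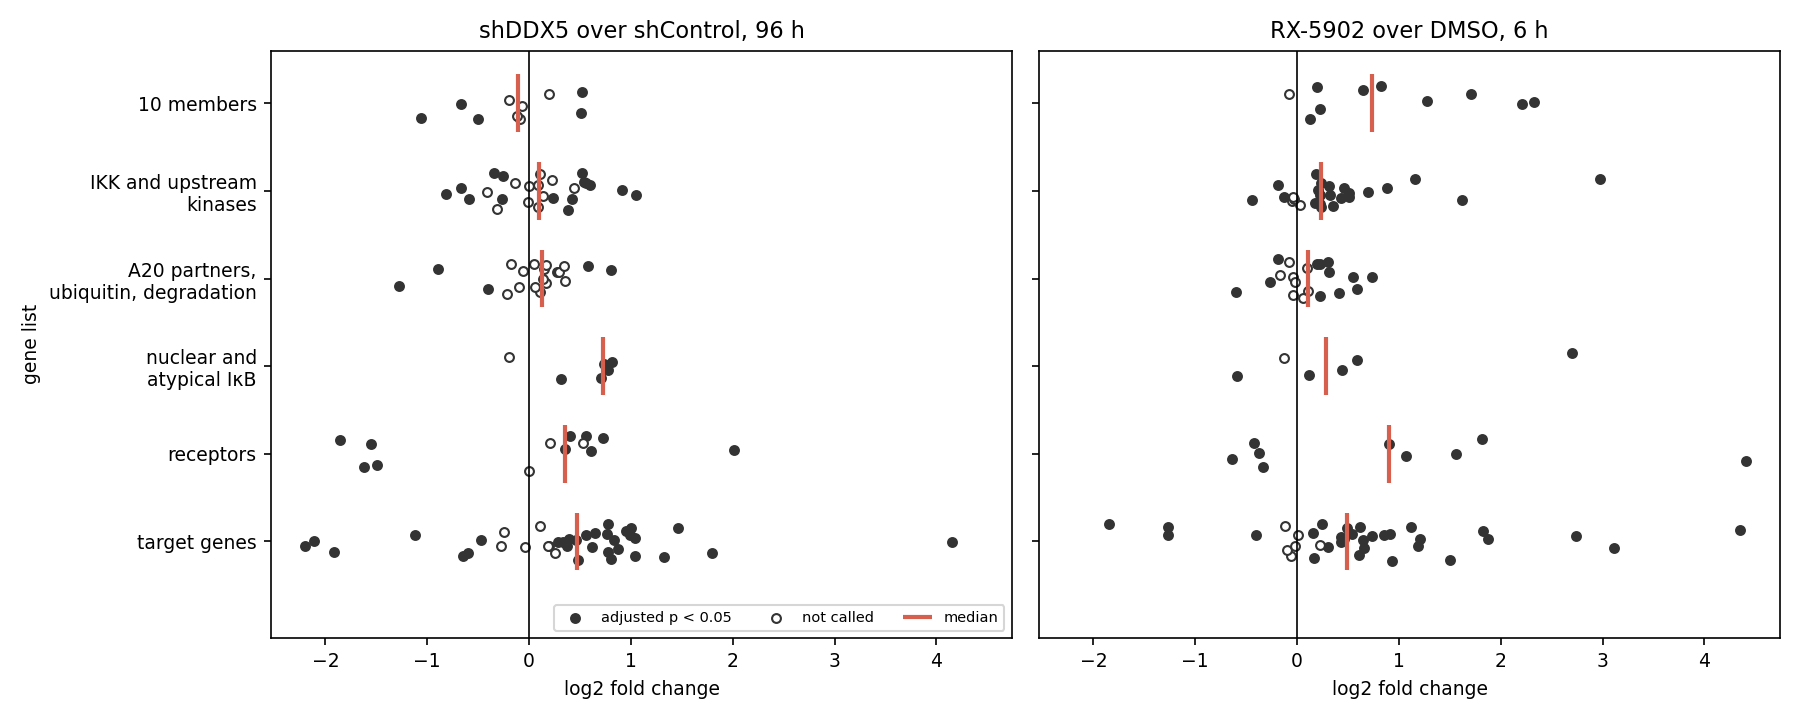
Log2 fold changes (x axis) of the 10 members and of the tested genes in each of the 5 pathway lists (y axis), for shDDX5 over shControl (left) and RX-5902 over DMSO (right); filled points passed an edgeR adjusted p of 0.05, vertical position within a row has no meaning, and red lines are medians. The members' median is -0.11 on the left and 0.73 on the right, and the target genes' medians are 0.47 and 0.49.

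The genes whose profile over the 12 libraries was nearest to a member were found for the 2 members with the largest change in each experiment, with each experiment centred on the mean of its 6 libraries and 9448 protein-coding genes compared. Likeness is the root mean square difference in log2 CPM. CYLD was nearest to PIK3IP1 (0.10), SYT11 (0.12) and KAT2B (0.17), which had log2 fold changes of -1.22, -1.33 and -1.59 in shDDX5 cells and 1.60, 1.80 and 1.55 in RX-5902 cells. NFKB2 was nearest to IL21R (0.10), PPP2R5B (0.13) and DNAJB2 (0.14), with drug changes of 2.20, 2.42 and 2.16. RELB had no neighbour as close, with IL4I1 at 0.21 and LFNG and AIM2 at 0.23. NFKBIB was nearest to CHTOP, HCLS1 and EIF3D, each at 0.05, whose knockdown changes were -0.71, -0.60 and -0.66. These are descriptions over 12 libraries in 4 groups, so the group means set most of the likeness.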

How the data were processed

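The tables the authors deposited hold whole-number read counts for each gene and library, without normalization, per the file headers in featureCounts layout. Build GRCh38.p13 was used, per the submitters' processing notes, which list featureCounts (Subread 2.0.3), STAR 2.7.9a, Trim Galore 0.6.7, Picard 2.8.0, DESeq2 1.46.0 and R 4.4.2. Annotation release, strand setting and duplicate handling are not given in the sources used here. One record wrapped over 3 lines was rejoined in each table.

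Each experiment was fitted separately with edgeR 4.0.16 in R 4.3.3 (filterByExpr, TMM, quasi-likelihood F test, two-sided, Benjamini-Hochberg over all genes tested, threshold 0.05). The difference of the changes was a contrast over 12 libraries. The standard error is the log2 fold change over the square root of F. RPKM used the deposited gene lengths, or in an alternative the median GENCODE 29 transcript length. The scripts were tested on simulated data. DESeq2 1.42.0, other normalizations and filters, length offsets, a replicate block and left-out libraries were alternatives.

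Members and lists were chosen with earlier results of these data known. The text names all members, up to 4 called genes with the smallest p per list and experiment, and the 3 nearest profiles. It also names list genes looked up after their values were seen, and some that met the read filter through a single group. Same-numbered libraries did not deviate together, so no pairing was used.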

Additional observations from a re-analysis of the deposited data

Results flagged for a closer look

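For 9 members the knockdown change and the drug change differed in the edgeR test of the difference itself, over 12 libraries with 4 group means. On the log2 scale, the knockdown change minus the drug change was -2.79 for CYLD, -2.54 for RELB, -1.71 for NFKB2, -1.37 for NFKBIA, -0.96 for NFKBIE, -0.75 for NFKB1, -0.61 for NFKBIB, -0.47 for TNFAIP3 and 0.38 for RELA. Adjusted p ran from 1.13e-10 for CYLD to 0.00897 for RELA. CYLD and NFKB1 were called in opposite directions in the 2 experiments, while NFKB2 and RELA were higher in both. The share of all genes called by the same test was 52.7%.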

How the results depend on the processing

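Without shDDX5 replicate 1, the number of members called in the knockdown went to 9, from 5 with it, the one count of members that moved by more than 1.5 times. Leaving out each library in turn gave 5 to 9 members called in the knockdown, 7 to 9 in the drug experiment and 9 for the difference. The calls of NFKB1, NFKB2, RELA, NFKBIB and CYLD in the knockdown held in all 16 alternatives, as did those of NFKB2, RELB, NFKBIA, NFKBIE, TNFAIP3 and CYLD in the drug experiment. TNFAIP3 and NFKBIE were also called in the knockdown with length-trend offsets, at 0.29 and -0.24, and TNFAIP3 in 1 fit of all libraries, at 0.22. With those offsets the knockdown changes of NFKB1 and CYLD shrank to -0.28 and -0.86, and that of NFKBIB went to -0.82. The drug calls of RELA held in 10 and of REL in 7 of 16 alternatives. Against a fold of 1.2, the count over all genes in the drug experiment was 5190, against 8943 otherwise. No log2 fold change of a called member changed sign. With CPM sums in place of RPKM sums, the drug log2 difference in the IkB over subunit ratio was -0.25 in place of -0.64. The transcript lengths, and the sums without single libraries, were alternatives chosen after seeing the data.

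With the replicate number as a block, 5 members were called in the knockdown, 9 in the drug experiment and 9 for the difference, as without it. The numbers do not pair the libraries: same-numbered libraries had correlations of -0.034, -0.074 and 0.035 in the knockdown and -0.035, 0.016 and -0.041 in the drug experiment.

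Limits are the 3 libraries per group, 1 cell line, 1 time per agent, and unknown strand handling for genes with an antisense partner. RNA levels give neither IkB protein nor nuclear NF-kB. The fewest reads of a member in any library were the 102 of REL in shDDX5 replicate 1.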
